A study of Oryctolagus cuniculus with 12 samples.

Results

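Phospholipases A2 and the genes of the leukotriene pathway were followed in the conjunctiva of rabbit eyes after trabeculectomy, an operation for glaucoma in which aqueous humor is drained into a bleb under the conjunctiva. The group held 10 genes, chosen by name from the 20566 genes of the table. They were the secreted phospholipase A2 genes PLA2G2F and LOC100351425, the cytosolic phospholipase A2 gene PLA2G4A, PLA2G7, ALOX5, ALOX5AP, ALOX12, ALOX15, LTA4H, and LTB4R. LOC100351425 is annotated as a membrane-associated phospholipase A2. All 10 were found, 9 passed the filter on low counts, and ALOX15 did not. The list was drawn up with counts of these same 12 libraries in view, and PLA2G2F and LOC100351425 stood out there for their levels at 3 days. Their values are given as a description with no test, and they are left out of the counts of genes past a threshold below. The q values of the other genes describe the fit across all genes and are not independent evidence.

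RNA was sequenced from 12 libraries of female Japanese white rabbits. The TL3h, TL3d, and TL14d groups held 3 libraries each of conjunctiva with the filtration bleb, taken from the right eye after trabeculectomy with mitomycin C, at 3 hours in TL3h, 3 days in TL3d, and 14 days in TL14d, mitomycin C being a drug that slows scarring by stopping cell division. The control group held 3 libraries of conjunctiva from unoperated left eyes. The labels list no genetic change. The rabbits were 12 to 14 weeks old. Which control eye belonged to which operated rabbit and when the control tissue was taken are not given in the sources used here. In the study's surgical protocol a betamethasone injection, a steroid that acts on this pathway, closed the operation. The labels of these libraries do not list it, so its share in any difference from control cannot be told apart from that of the operation.

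Phospholipases A2 cut fatty acids, among them arachidonic acid, from membrane phospholipids. Cytosolic PLA2G4A favors arachidonate, secreted forms act outside the cell, and PLA2G7 is a secreted enzyme that inactivates platelet-activating factor (PAF). ALOX5, held at the nuclear membrane by ALOX5AP, turns arachidonic acid into leukotriene A4, LTA4H turns that into leukotriene B4, and LTB4R is its high-affinity receptor, through which neutrophils are drawn to a site of injury. ALOX12 and ALOX15 make other hydroxylated fatty acids, and ALOX15 products include mediators linked to the end of inflammation.

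The libraries held 27111348 to 38591425 estimated counts. Levels are CPM, counts relative to the library size after scaling by the trimmed mean of M-values (TMM). The TMM factors were 0.768 to 0.783 in TL3h and 1.033 to 1.132 in the other libraries, and without this scaling the log2 fold changes at 3 hours had a median of -0.47 over all genes instead of 0.02. The tissue was bulk conjunctiva, in which fewer cells of a type and less RNA per cell cannot be told apart. The epithelial markers EPCAM (92.7 to 353 CPM) and KRT5 (1258 to 9070 CPM) were present in every library. The summed level of the 9 of 12 neutrophil markers found in the table was 7.07 to 114 CPM in control, 1302 to 3460 in TL3h, 195 to 899 in TL3d, and 7.46 to 117 in TL14d. The sum of the 9 of 11 monocyte and macrophage markers found was 113 to 913, 814 to 1232, 1570 to 2441, and 157 to 503 CPM in the same order. Control replicate 3 held the highest control value of both sums, and TL14d replicate 1 had the lowest of both in its group. TL14d replicate 1 lay inside the control range for LOC100351425, PLA2G4A, PLA2G7, ALOX5, LTA4H, and LTB4R. TL14d replicate 3 lay inside it for ALOX5, ALOX12, ALOX5AP, and LTB4R. The counts of calls and some fold changes at 14 days are also given without TL14d replicate 1. It was picked with these values seen, so a call gained without it is no independent evidence.

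Against control, 3 of the other 7 genes tested passed a q value of 0.05 at 3 hours and all 3 rose, PLA2G4A, ALOX5AP, and LTB4R. Over all 14835 genes tested 45.4% passed in this comparison, 23.2% higher and 22.2% lower in TL3h. The count was 5 with DESeq2 (51.1% of all genes) or without TL14d replicate 2 (45.2%), where ALOX5 was also higher and PLA2G7 lower. With library size only it was 3 (51.0%), with PLA2G7 lower in place of LTB4R. At 3 days 2 passed, PLA2G4A and LTA4H, both higher, beside 17.6% of all genes (10.6% higher in TL3d). At 14 days none passed with edgeR, beside 0% of all genes, or with DESeq2, beside 2.49%, and 1 (LTA4H) had an unadjusted p under 0.05, beside 10.4%. The median log2 fold change of the 7 genes was 1.28, 1.29, and 0.48 at the 3 times, beside 0.02, 0.00, and 0.02 over every gene tested. The value at 3 hours was 0.79 with library size only, and that at 14 days was 0.13 without TL14d replicate 1, 0.01 without TL14d replicate 2, and 0.14 without control replicate 1. At 3 days the count fell to 0 without control replicate 1 or 2 or TL3d replicate 1 or 2, where 2.37% to 3.25% of all genes passed. It was 1 (LTA4H) without TL3d replicate 3, TL14d replicate 3, or any 1 of the TL3h libraries, where 13.6% to 15.6% passed. At 14 days 1 passed without TL14d replicate 1, LTA4H, beside 4.74% of all genes.

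**Figure D1:**
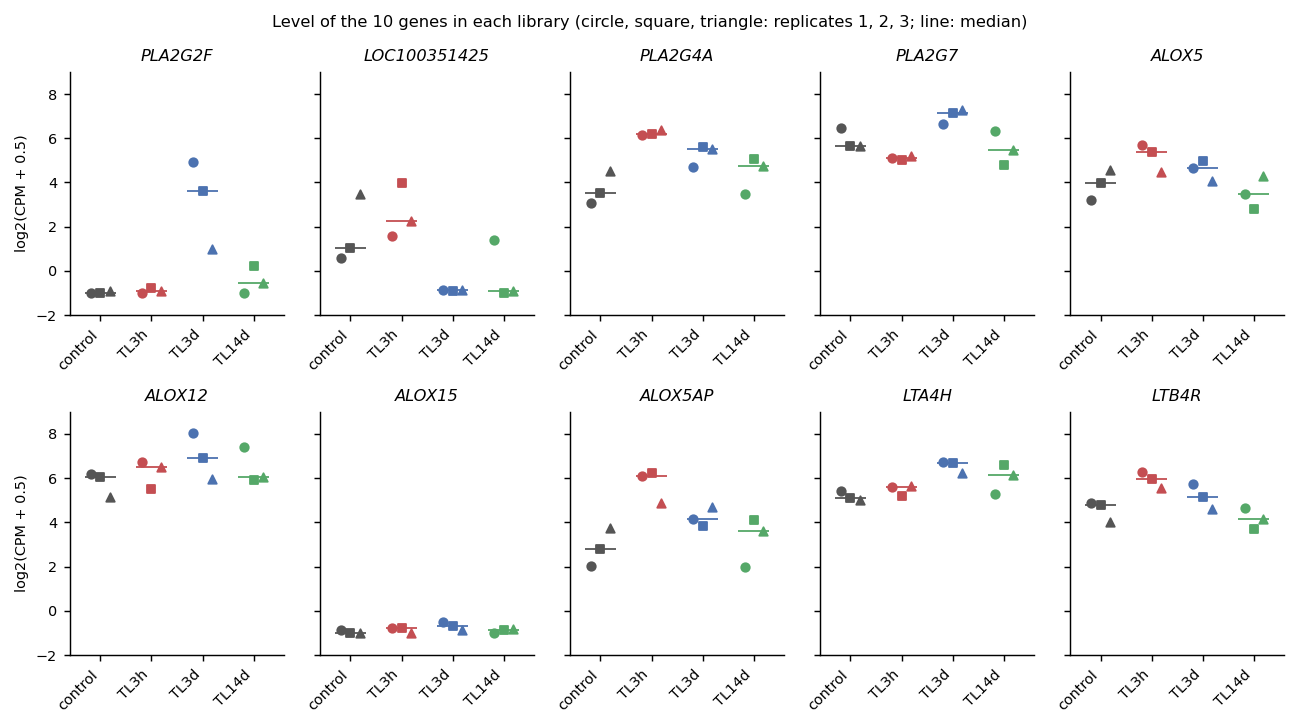
Level of each of the 10 genes in each library, as log2(CPM + 0.5), with the groups on the x axis, 1 point per library (circle, square, and triangle for replicates 1, 2, and 3), and a line at the median. PLA2G2F was above 1 CPM only in the 3 TL3d libraries, LOC100351425 was lowest in TL3d and in TL14d replicates 2 and 3, and PLA2G4A, ALOX5AP, and LTB4R had all TL3h libraries above all control libraries.

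PLA2G2F, a secreted phospholipase A2 known from the upper layers of the skin, was almost silent outside the TL3d group. It lies on chromosome 13 at 132853630 to 132860834 (OryCun2.0, minus strand). Its levels were 0, 0, and 0.0251 CPM in control, 0, 0.083, and 0.0366 in TL3h, 29.5, 11.6, and 1.51 in TL3d, and 0, 0.652, and 0.195 in TL14d. Every TL3d library was above every other library, while the TL3d libraries themselves ranged from 53 to 1180 counts. The control libraries together held 1 count and those of TL3d 1608, a ratio of 1822 at equal depth with an exact 95% interval of 327 to 72006 that covers counting error only. TL3d replicate 1 alone gave 1180 of these counts, and without it the ratio was 774 (interval 138 to 30634). Without control replicate 3, which held the only control count, TL3d was at least 409-fold higher, taking 3 counts over the control group as its limit. Against the 3 counts of TL3h the ratio was 386 (interval 132 to 1872). In TL14d 30 counts remained, a ratio to control of 37.6 (interval 6.25 to 1535), and TL14d replicate 1 held none, so the TL14d and control libraries overlapped. TL14d replicate 2 held 24 of these counts, so this ratio rests mainly on it and on the 1 count of control replicate 3.

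LOC100351425 ran the other way at 3 days. It lies 83591 bases from PLA2G2F, at 132944426 to 132948859 on the plus strand of the same chromosome. Its levels were 1.02, 1.58, and 10.8 CPM in control, 2.5, 15, and 4.32 in TL3h, 0.05, 0.0308, and 0.0569 in TL3d, and 2.12, 0, and 0.0326 in TL14d. The TL3d libraries held 2, 1, and 2 counts, below all control and TL3h libraries, and the summed control counts were 94.8 times as high at equal depth (interval 40.4 to 293, counting error only). Of the 537 control counts 431 came from control replicate 3, and without it the ratio was 27.8 (interval 11.5 to 87.4). Control and TL3h overlapped, and within each of them 1 library was several times above the others. In TL14d 63 of the 64 counts came from replicate 1, and the other 2 libraries were at 0 and 1 count. Without it the fitted log2 fold change from control moved from -2.65 to -7.90.

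The 9 genes of the secreted phospholipase A2 cluster on chromosome 13, which spans 234 kb, were set beside both genes after the data had been seen, by their position. PLA2G2C, LOC100344166, LOC100344421, and PLA2G2E were too low to be tested. LOC100343913, a second gene annotated as membrane-associated phospholipase A2, had 2526, 1547, and 1546 CPM in control and 1275, 979, and 1344 in TL3h. It stood at 131, 112, and 81.1 CPM in TL3d and at 3004, 319, and 72 in TL14d. It fell at 3 days by 4.11 ± 1.07 (log2, SE, q = 0.0299), a call lost without control replicate 1 or 2 or any TL3d library (q of 0.0684 to 0.102). Of its 12 values 50% were fractions, so reads shared with near-identical copies may be split in it. PLA2G5, a secreted enzyme of the same family, fell from 2.78 to 0.365 CPM at 3 days (log2 fold change -2.91 ± 0.65, q = 0.0191), lost without control replicate 1 or 2 or TL3d replicate 1 or 2. PLA2G2D had 0, 3.05, and 3.51 CPM in control and 2.45, 5.3, and 16.4 in TL3d (log2 fold change 1.88 ± 1.22, q = 0.289). Of the 3 cluster genes tested besides PLA2G2F and LOC100351425, 2 thus fell at 3 days, beside 1039 of all 14835 genes lower in TL3d, and this set was drawn up by position around genes already known to differ.

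**Figure D2:**
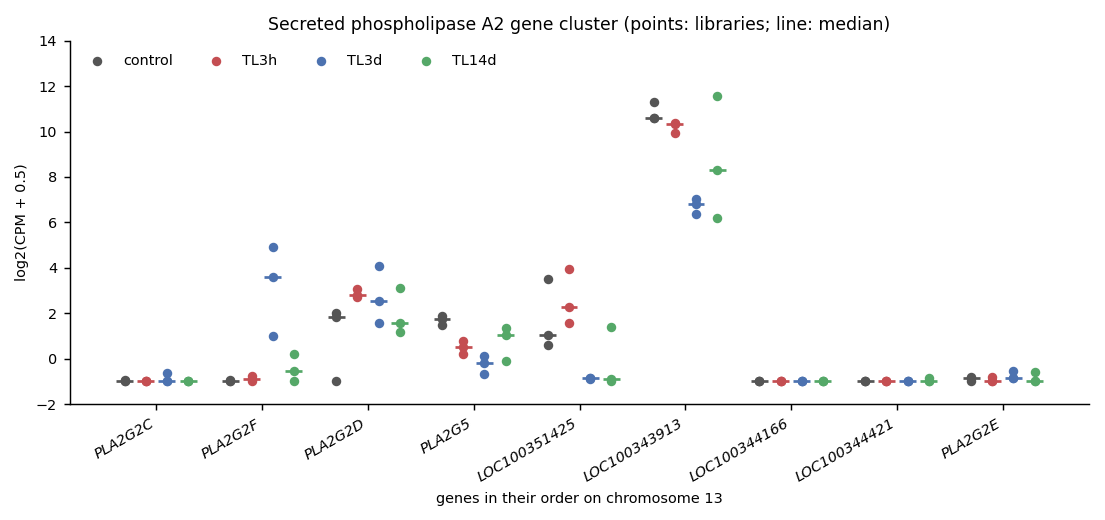
Levels of the 9 genes of the secreted phospholipase A2 cluster, in their order on chromosome 13 along the x axis, as log2(CPM + 0.5) in each library (points, colored by group) with the group median (line). In TL3d PLA2G2F lies above the other groups, while PLA2G5, LOC100351425, and LOC100343913 lie below control, and TL14d replicate 1 is the high TL14d point of LOC100343913 at 3004 CPM.

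The genes whose profile over the 12 libraries lay nearest to each of these were found by the root mean square difference of log2(CPM + 0.5) after centering each gene. Nearest to PLA2G2F were LOC100349940, annotated as a medium-chain S-acyl fatty acid synthase thioesterase (0.46), THEM5, a fatty acyl thioesterase (0.63), the protease inhibitor SPINK5 (0.73), CA2 (0.77), and SERPINB13 (0.79), where the median over all genes was 1.99. SPINK5 had means of 1.05, 1.14, 26.9, and 3.42 CPM in control, TL3h, TL3d, and TL14d. The sum of the 9 of 11 markers found of cornifying epithelium was 20.2 to 34.7 CPM in control, 308 to 477 in TL3h, 36.7 to 233 in TL3d, and 31.1 to 53.4 in TL14d, and its part in the PLA2G2F level was not tested. Nearest to LOC100351425 were SPOCK3 (0.31), the amino acid transporter gene SLC7A3 (0.50), SCUBE1 (0.55), UPK1B (0.56), and LOC100354095 (0.56), with a median over all genes of 1.76. SLC7A3 had means of 6.89, 17, 0.222, and 2.03 CPM in the same order of groups.

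PLA2G4A, which starts eicosanoid synthesis by freeing arachidonic acid inside the cell, rose 3 hours after the operation. It lies on chromosome 16 at 83420778 to 83582315. Its levels were 7.93, 10.9, and 22.2 CPM in control, 70.2, 72.8, and 82.2 in TL3h, 25.1, 47.7, and 45.4 in TL3d, and 10.5, 32.4, and 26.5 in TL14d. The TL3h libraries lay close together and above all others, and those of TL3d lay between TL3h and control without overlap. The log2 fold change from control was 2.46 ± 0.48 (q = 0.00227) at 3 hours and passed in all 19 alternative settings. At 3 days it was 1.53 ± 0.46 (q = 0.047), and 11 of the 19 settings, among them leaving out either control replicate 1 or 2 or any TL3d library, gave a q above 0.05, up to 0.14. At 14 days it was 0.76 ± 0.46 (q = 0.587), with overlapping libraries, and 1.11 ± 0.40 (q = 0.153) without TL14d replicate 1. Of its 5 transcript models, 3 were abundant enough to test, and all 3 rose at 3 hours, the 2253-base model by 3.26 ± 0.51 and the 2939-base model, which held 77.2% of the model counts in control and 73.7% in TL3h, by 2.32 ± 0.51.

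The other cytosolic and calcium-independent phospholipases A2 did not share one direction. Of 9 tested, 3 rose and 3 fell at 3 hours, beside 23.2% higher and 22.2% lower over all genes. PLA2G4B rose from 15.7 to 40.5 CPM (log2 fold change 1.37 ± 0.39, q = 0.0164). With library size only the value was 0.87 (q = 0.0884). It was 1.28, 1.36, and 1.13 without control replicate 1, control replicate 2, or TL3h replicate 3 (q of 0.0509 to 0.0667), fits with fewer libraries. PLA2G4F fell from 299 to 61.4 CPM (-2.29 ± 0.52, q = 0.00527) and PLA2G4D from 174 to 40.6 CPM (-2.10 ± 0.49, q = 0.00574). No TL3h library of either overlapped control. The calcium-independent enzyme PLA2G6 fell by 1.13 ± 0.26 at 3 hours (q = 0.006) and by 0.93 ± 0.26 at 3 days (q = 0.0374). The latter call was lost in 10 of 19 settings, among them without any 1 of the control libraries or without TL3d replicate 1 or 2. PNPLA8, with means of 61.7 CPM in control, 106 in TL3h, and 54.1 in TL3d, was 1 of the 3 that rose at 3 hours. It fell from TL3h to TL3d by 0.98 ± 0.25 (q = 0.0117, 0.0995 with library size only).

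PLA2G7, on chromosome 12 at 36055440 to 36100726, changed most between 3 hours and 3 days. Its levels were 86.6, 49.8, and 49 CPM in control, 33.8, 31.9, and 36.7 in TL3h, 99.5, 140, and 157 in TL3d, and 79.5, 27.5, and 43.7 in TL14d. All TL3h libraries were below and all TL3d libraries above control, and TL14d overlapped control. TL3d stood 1.95 ± 0.37 above TL3h on the log2 scale (q = 0.00266), in all 19 alternatives past the threshold. Against control the log2 fold change was -0.86 ± 0.36 (q = 0.0788) at 3 hours and 1.10 ± 0.36 (q = 0.0621) at 3 days. At 3 hours it passed in 5 of 19 settings, with library size only (-1.37, q = 0.0116), with only the 6 libraries compared, with DESeq2, and without TL14d replicate 1 or 2 (q of 0.027 to 0.0386 in the last 4). At 3 days it passed with DESeq2, with only the 6 libraries compared, and without TL14d replicate 1 or 2 (q of 0.0202 to 0.0478). None of its 4 transcript models passed against control. The macrophage markers CD163 and CSF1R were at 328 to 673 and 274 to 498 CPM in TL3d and at 127 to 144 and 76.6 to 134 CPM in TL3h. Other markers of that list overlapped between these groups, C1QC with 95.2 to 137 CPM in TL3d and 119 to 179 in TL3h, and CD14 with 126 to 211 and 117 to 256, and 1 of the 9 passed from TL3h to TL3d. The sum of that list was 113 to 913 CPM in control and 814 to 1232 in TL3h, where PLA2G7 was below every control library. Control replicate 3 had the highest control sum and the lowest control level of PLA2G7. TL14d replicate 1 had the lowest TL14d sum and the highest TL14d level of PLA2G7. The part of macrophage RNA in the PLA2G7 level was not tested.

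Of 6 other genes of PAF metabolism, 2 fell and 1 rose at 3 hours, 3 in all beside 45.4% of all genes. PAFAH2, an intracellular PAF acetylhydrolase, fell from 17.8 to 3.91 CPM (log2 fold change -2.19 ± 0.29, q = 0.000296), and PAFAH1B3, a catalytic subunit of the brain-type PAF acetylhydrolase, fell from 39.9 to 16.8 CPM (-1.25 ± 0.25, q = 0.00286). PAFAH1B1, the regulatory subunit of that enzyme and named here after its values were seen, stood at 0.40 ± 0.13 (q = 0.0284), which turned to -0.10 with library size only and lost the threshold in 8 of 19 settings. LPCAT2, another of the 6 and also named after its values were seen, did not pass with edgeR. Its means were 2.77 CPM in control, 13.6 in TL3h, and 15.1 in TL3d, and neither operated group overlapped control. DESeq2 called it at 3 hours (51.1% of all genes) and at 3 days (30.3%). At 3 days PAFAH2 was 2.02 ± 0.29 above TL3h (q = 0.000565), and 15.9 CPM on average. PAFAH1B3 was 0.73 ± 0.25 above TL3h (q = 0.0431), lost in 8 of 19 settings, which left out control replicate 1 or 2, TL3h replicate 2 or 3, any TL3d library, or TL14d replicate 3. The PAF receptor gene PTAFR had 4.87, 7.28, and 12.6 CPM in control, 188, 198, and 82.8 in TL3h, 65.2, 97.9, and 49.4 in TL3d, and 4.07, 53.4, and 14.1 in TL14d. It rose by 4.25 ± 0.85 at 3 hours (q = 0.00276) and by 3.10 ± 0.81 at 3 days (q = 0.0303, 0.0732 to 0.103 without control replicate 1 or 2 or TL3d replicate 1 or 2).

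ALOX5AP, the membrane protein that hands arachidonic acid to 5-lipoxygenase, rose at 3 hours. It lies on unplaced sequence, at 37334712 to 37364213 of a joined sequence of such pieces. Its levels were 3.54, 6.55, and 12.9 CPM in control, 67.5, 74.6, and 28.5 in TL3h, 17.3, 13.6, and 25.1 in TL3d, and 3.5, 16.7, and 11.9 in TL14d. Both the TL3h and the TL3d libraries lay above all control libraries. Its log2 change from control was 2.89 ± 0.65 in TL3h (q = 0.00485, past the threshold in all 19 alternatives) and 1.29 ± 0.61 at 3 days (q = 0.159). From TL3h to TL3d the value was -1.61 ± 0.62 (q = 0.0645). TL3h replicate 3, the lowest of its group, also had the lowest levels of the neutrophil markers CSF3R (228 CPM, against 701 and 607) and CXCR2 (82.6 CPM, against 177 and 235). Control replicate 3, the highest control library, had 18.9 CPM of CSF3R against 1.09 and 2.05. The other groups differed. TL3d replicate 3, the highest of its group for ALOX5AP, had the lowest CSF3R (39.6 CPM, against 156 and 82.3) and CXCR2 (11.7 CPM, against 44.1 and 20.6). TL14d replicate 2, the highest of its group, had 6.63 CPM of CSF3R against 16.8 in TL14d replicate 3. The part of neutrophil RNA in the ALOX5AP level was not tested.

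ALOX5 itself, on chromosome 18 at 6719075 to 6757526, did not pass in any comparison. Its levels were 8.64, 15.2, and 23 CPM in control, 50.9, 40.7, and 21.9 in TL3h, 24.9, 30.9, and 16.3 in TL3d, and 10.6, 6.49, and 19.3 in TL14d. TL3h replicate 3 lay inside the control range and the other TL3h libraries above it. The log2 fold change at 3 hours was 1.28 ± 0.49 (q = 0.0541). It passed without control replicate 3 (1.61, q = 0.0349), without TL3h replicate 3 (1.51, q = 0.0396), without TL14d replicate 2 or 3 (q of 0.0412 and 0.0393), and with DESeq2 (q = 0.0289). The 2393-base model held 96.2% to 98.3% of the model counts in every group.

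LTA4H, the enzyme that forms leukotriene B4, rose later than ALOX5AP in these groups, at 3 days. It lies on chromosome 4 at 75201438 to 75241633. Its levels were 42.9, 34.2, and 31.5 CPM in control, 48.8, 36.5, and 49.5 in TL3h, 106, 103, and 75.5 in TL3d, and 38.9, 96.4, and 70.2 in TL14d. The TL3d libraries lay above all control and TL3h libraries. The log2 fold change at 3 days was 1.39 ± 0.30 (q = 0.0173), with q of 0.0502 to 0.0647 without control replicate 1, control replicate 2, TL3d replicate 1, or TL3d replicate 2. TL3d stood 1.08 ± 0.30 above TL3h (q = 0.0165), lost without TL3h replicate 2, TL3d replicate 1, or TL3d replicate 2 (q of 0.0517 to 0.0569). At 3 hours the value was 0.31 ± 0.29 (q = 0.419) and turned to -0.19 with library size only. At 14 days it was 0.92 ± 0.29 (q = 0.376) with all libraries and 1.20 (q = 0.0231) without TL14d replicate 1, the only TL14d library inside the control range. Since that library was picked with its values seen, the second value is a description only.

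LTB4R, on chromosome 17 at 44355991 to 44360773, rose at 3 hours. Its levels were 29, 27.1, and 15.9 CPM in control, 76.7, 62.7, and 46 in TL3h, 52.7, 34.7, and 24.2 in TL3d, and 24.7, 12.6, and 17.5 in TL14d. The TL3h libraries lay above control, while those of TL3d and TL14d overlapped it. The log2 fold change at 3 hours was 1.36 ± 0.36 (q = 0.011), and 0.85 (q = 0.0826) with library size only. At 3 days it was 0.63 ± 0.35 (q = 0.222). Its row lists 4 transcript models, of which 1 belongs to LTB4R2. The gene overlaps LTB4R2, the gene of a second leukotriene B4 receptor, by 386 bases, and all its values were fractions, so that reads may be split between both. LTB4R2 was at 3.26 CPM in control and 3.99 in TL3h (log2 fold change 0.29 ± 0.43, q = 0.619).

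The transcript models of LTB4R and LTA4H did not move alike. Of 3 LTB4R models, the 3744-base model held 15% ± 11.8 (SD, n = 3) of the model counts in control, 47.1% ± 3.06 in TL3h, 41.4% ± 4.23 in TL3d, and 15.7% ± 15.4 in TL14d. It rose at 3 hours by 3.32 ± 0.66 (q = 0.00461). The longest model, of 4348 bases, held 72.7% ± 8.15 in control and 30.4% ± 14.1 in TL3h, and its own log2 fold change was 0.04 ± 0.45 (q = 0.968). The 3744-base share lay above control in every TL3h and TL3d library. Both models end at the same place and share most of their sequence, so their counts are estimates of how shared reads divide. The third model, of 2232 bases, had means of 3.1 CPM in control and 15.4 in TL3h, with overlapping libraries. Its log2 fold change was 2.32 ± 0.86 (q = 0.0708), and its share 12.3% in control and 22.6% in TL3h. Of the 2 LTA4H models, the 2077-base model rose at 3 days from 30.1 to 85.3 CPM (q = 0.0286), a call lost without any 1 of the control libraries or without TL3d replicate 1 or 2 (q of 0.0566 to 0.111), and the 1843-base model had a log2 fold change of 0.31 ± 0.39 (q = 0.696). The 1843-base share was 15.5% ± 1.59 in control, 20.2% ± 0.639 in TL3h, 7.33% ± 1.28 in TL3d, and 8.96% ± 1.38 in TL14d. No TL3h library overlapped any other group in this share, and none of TL3d or TL14d overlapped control. The model counts of LTA4H are estimates too, and the shares were not set beside those of other genes. Over all transcripts, 28.3% passed at 3 hours and 5.13% at 3 days.

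**Figure D3:**
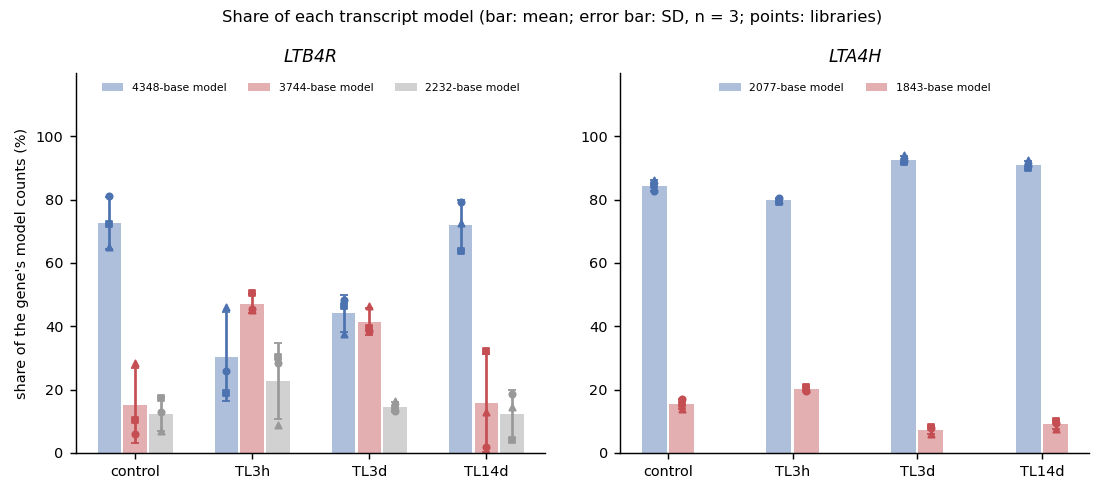
Share of the counts of each gene's transcript models that fell to each model (y axis, percent), by group, for LTB4R (left) and LTA4H (right). Bars are means, error bars SD (n = 3), and points single libraries. The 3744-base model of LTB4R goes from 15% in control to 47.1% in TL3h, and the 1843-base model of LTA4H from 20.2% in TL3h to 7.33% in TL3d.

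ALOX12, the 12-lipoxygenase of platelets and skin, passed in no comparison. It lies on chromosome 19 at 12033859 to 12047294. Its levels were 72.6, 65.6, and 34.7 CPM in control, 107, 45, and 90.4 in TL3h, 263, 120, and 61.3 in TL3d, and 170, 60.2, and 66.5 in TL14d. Libraries of each group overlapped control. At 3 hours the value was 0.49 ± 0.58 on the log2 scale (q = 0.53), which turned to -0.03 with library size only, 1.36 ± 0.59 (q = 0.126) at 3 days, and 0.78 ± 0.58 (q = 0.667) at 14 days, or 0.13 ± 0.58 (q = 0.918) without TL14d replicate 1. The platelet markers GP1BA and GP9 were at 0 in 10 and 11 of the 12 libraries. The sum of the 5 of 8 platelet markers found was 5.58 to 9.05 CPM in control, 20.3 to 39.7 in TL3h, 30.8 to 58 in TL3d, and 5.55 to 293 in TL14d. PPBP, a chemokine gene, made up most of these changes, with at most 0.05 CPM in control, 16.2 to 34.1 in TL3h, 21.3 to 55.1 in TL3d, and 287 in TL14d replicate 2, while ITGA2B was at 5.53 to 8.6 CPM in control and 3.99 to 5.39 in TL3h.

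ALOX15, which lies 125769 bases from ALOX12, was close to the limit of detection in every library. Its counts were 2, 0, and 0 in control, 2.5, 2, and 0 in TL3h, 8, 4, and 2 in TL3d, and 0, 2, and 2 in TL14d. The highest level was 0.2 CPM, in TL3d replicate 1. A library in which a gene has no count can hold up to 3 counts of it, or 0.0712 to 0.124 CPM at these depths, and the gene was too low to be tested. The TL3d libraries, with 14 counts in all, lay above the control libraries, with 2, and overlapped those of TL3h and TL14d, and TL3d replicate 3 was itself below that limit. The eosinophil markers EPX and CCR3, whose cells carry this enzyme in other species, were at most 0.142 and 0.256 CPM, and IL5RA was at 0.554 to 0.655 CPM in TL3d and at most 0.075 in control. The sum of the 5 of 6 eosinophil markers found was 0.119 to 0.201 CPM in control and 0.739 to 1.08 in TL3d. IL5RA gave the largest part of the TL3d sum, while EPX and CCR3 overlapped between TL3d and control. The part of eosinophil RNA in the ALOX15 counts was not tested.

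**Figure D4:**
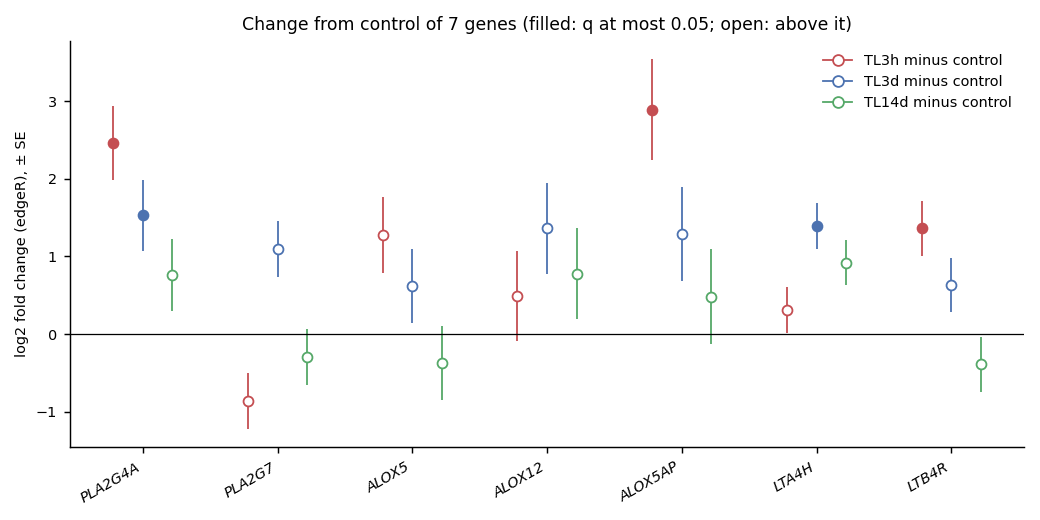
Log2 fold change from control (y axis, edgeR fit, ± SE) of 7 genes in TL3h, TL3d, and TL14d. Filled points have a q of at most 0.05. PLA2G4A, ALOX5AP, and LTB4R are filled at 3 hours, PLA2G4A and LTA4H at 3 days, and none at 14 days. PLA2G2F and LOC100351425, whose counts were near 0 in whole groups, and ALOX15 are not drawn.

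Between the operated groups, again without PLA2G2F and LOC100351425, 2 of the 7 genes differed at q of 0.05 from TL3h to TL3d, PLA2G7 and LTA4H, both higher in TL3d, beside 37.3% of all genes (18.4% higher and 19.0% lower). The count was 1 (PLA2G7) without TL3h replicate 2, TL3d replicate 1, or TL3d replicate 2, beside 29.5%, 29.0%, and 26.1% of all genes. It was 3 with DESeq2 (44.9% of all genes) or without TL14d replicate 1 (41.2%), where ALOX5AP was lower in TL3d, and 4 with only the 6 libraries compared (40.9%), where PLA2G4A and ALOX5AP were lower. From TL3d to TL14d none passed with edgeR, beside 2.24% of all genes, while 2 had an unadjusted p under 0.05 (PLA2G7 and LTB4R), beside 22.6%, and DESeq2 called PLA2G7, beside 12.5%. In that comparison PLA2G7 was lower in all 3 TL14d libraries than in any TL3d library, and its log2 fold change was -1.40 ± 0.37 (q = 0.0747), or -1.89 ± 0.32 (q = 0.0515) without TL14d replicate 1.

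Compared per transcript length, as FPKM (fragments per kilobase of transcript, scaled to depth), the order of the genes changed with time. In control PLA2G7 led with 27.5 ± 10 FPKM (SD, n = 3), ahead of ALOX12 (22.9 ± 8.61), LTA4H (17 ± 3.19), and ALOX5AP (9.24 ± 5.41). Each of these overlapped the next in the order. In TL3h ALOX5AP led with 49.8 ± 21 FPKM, overlapping ALOX12 (23.1 ± 9.41), and PLA2G7 stood at 10.9 ± 1.03, level with ALOX5 (10.9 ± 4.17) and overlapping LTB4R (8.71 ± 2.09). In TL3d ALOX12 (59.4 ± 42), PLA2G7 (58.9 ± 12.3), and LTA4H (45 ± 8.99) overlapped, and all 3 libraries of LTA4H were above those of ALOX5AP (22.9 ± 6.62), which in turn were above those of PLA2G4A (12.2 ± 3.83). PLA2G2F reached 3.92 ± 3.92 FPKM in TL3d, between LTB4R (7.39 ± 2.96), which it overlapped, and LOC100351425 (0.0585 ± 0.0162). In TL14d ALOX12 (39.4 ± 24.5), LTA4H (32.4 ± 13.8), and PLA2G7 (22.4 ± 11.9) led and overlapped each other in turn. Without TL14d replicate 1 the order was LTA4H (39.5), ALOX12 (25.2), ALOX5AP (17.7), and PLA2G7 (15.9 FPKM).

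Of the other genes of these pathways, 58 were listed, 49 found, and 40 tested. At 3 hours 11 rose and 6 fell, beside 23.2% and 22.2% of all genes. At 3 days 6 rose and 3 fell, 9 in all beside 17.6% (10.6% higher), and at 14 days none passed with edgeR, beside 0%. The share at 3 hours was thus near that of all genes, and the list as a whole is not set apart by these counts. The median log2 fold changes were 0.28, 0.21, and -0.03. At 14 days 4 had an unadjusted p under 0.05, beside 10.4% of all genes, and DESeq2 called CYSLTR2 alone, beside 2.49%. At 3 days the count of 9 fell to 0 without control replicate 1, control replicate 2, or TL3d replicate 2, to 1 without TL3d replicate 1, and to 5 without TL3h replicate 3, and it was 14 without TL14d replicate 1, fits in which 2.37% to 3.25%, 2.97%, 13.6%, and 25.0% of all genes passed. At 14 days 2 passed without TL14d replicate 1, beside 4.74% of all genes.

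Of 7 receptors for lipid mediators tested, 2 rose at 3 hours, beside 23.2% of all genes, and 3 at 3 days, beside 10.6%. FPR2, a receptor for lipoxin A4 and formylated peptides carried by neutrophils, rose from 0.0237, 0.175, and 2.46 CPM in control to 183, 238, and 148 in TL3h (log2 fold change 7.74 ± 2.06, q = 0.0115). The receptors for cysteinyl leukotrienes were high at 3 days. CYSLTR2 had 0.641, 1.08, and 0.451 CPM in control and 15.8, 16.8, and 20.1 in TL3d (4.60 ± 0.95, q = 0.0166, lost without control replicate 1 or 2 or TL3d replicate 2). CYSLTR1 had 1.64, 4.03, and 3.89 CPM in control, 1.38, 1.37, and 1.32 in TL3h, and 10.5, 15.1, and 18.6 in TL3d. It rose from TL3h to TL3d by 3.44 ± 0.68 (q = 0.00328, in all 19 settings) and from control by 2.21 ± 0.64 (q = 0.0419), the latter lost without any 1 of the control, TL3h, or TL3d libraries. CYSLTR2 rose from TL3h to TL3d by 2.83 ± 0.87 (q = 0.0282), lost without TL3h replicate 1 or 3 or any TL3d library. GPR18, an orphan receptor proposed to bind resolvin D2, was 1.60 ± 0.41 higher in TL3d than in TL3h (q = 0.0117). Of the 4 tested genes that make or process cysteinyl leukotrienes none passed in any comparison with edgeR or DESeq2, and 0 had an unadjusted p under 0.05. The edgeR shares of all genes in these comparisons were 45.4%, 17.6%, and 0% against control at the 3 times, 37.3% from TL3h to TL3d, and 2.24% from TL3d to TL14d. In the same order, the DESeq2 shares were 51.1%, 30.3%, 2.49%, 44.9%, and 12.5%. The shares with an unadjusted edgeR p under 0.05 were 52.3%, 36.2%, 10.4%, 47.5%, and 22.6%. LTC4S, which joins leukotriene A4 to glutathione, was at 3 ± 0.694 CPM in control and 2.28 ± 0.332 in TL3d.

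Both regulators of phospholipase A2 tested (2 of 2) and both genes of arachidonate reacylation (2 of 2) rose at 3 hours, beside 23.2% of all genes, and 1 of each pair rose at 3 days, beside 10.6%. ANXA1, a steroid-induced protein known to hold back phospholipase A2, rose from 2199, 2058, and 1466 CPM in control to 5950, 7147, and 7169 in TL3h (log2 fold change 1.82 ± 0.33, q = 0.00162). PLAA, the phospholipase A2 activating protein, also rose at 3 days, by 0.80 ± 0.18 (q = 0.0195, lost without control replicate 1 or 2 or TL3d replicate 1 or 2). ACSL4, which couples arachidonic acid to coenzyme A, rose from 197 to 650 CPM at 3 hours (1.72 ± 0.34, q = 0.0023) and fell from TL3h to TL3d by 1.34 ± 0.33 (q = 0.0104). LPCAT3, which returns arachidonate to phospholipids, rose at 3 days by 0.72 ± 0.21 (q = 0.0403), and 9 of 19 settings, each without 1 library, lost this call, those without any of the TL3h or TL3d libraries, control replicate 1 or 2, or TL14d replicate 3. COTL1, an actin-binding partner of 5-lipoxygenase, rose from 32.4 to 116 CPM at 3 days (1.84 ± 0.56, q = 0.0471), lost in 11 of 19 settings, with q up to 0.142. ALOXE3, an epidermal lipoxygenase, rose from 1.3 to 8.65 CPM at 3 hours (2.73 ± 0.62, q = 0.00522) and stood at -2.27 ± 0.61 in TL3d against TL3h (q = 0.015, lost without TL3h replicate 3 or TL3d replicate 2). EPHX2, the soluble epoxide hydrolase, fell from 50.1 to 19 CPM at 3 hours (-1.40 ± 0.32, q = 0.00501) and stood at 18 CPM in TL3d (-1.47 ± 0.32, q = 0.0175, lost without control replicate 1 or 2 or TL3d replicate 1 or 2). In TL14d it was 1.54 ± 0.32 above TL3d (q = 0.0406), a call that 12 of 19 settings lost, among them the fit without TL14d replicate 1 (1.11, q = 0.0841).

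**Figure D5:**
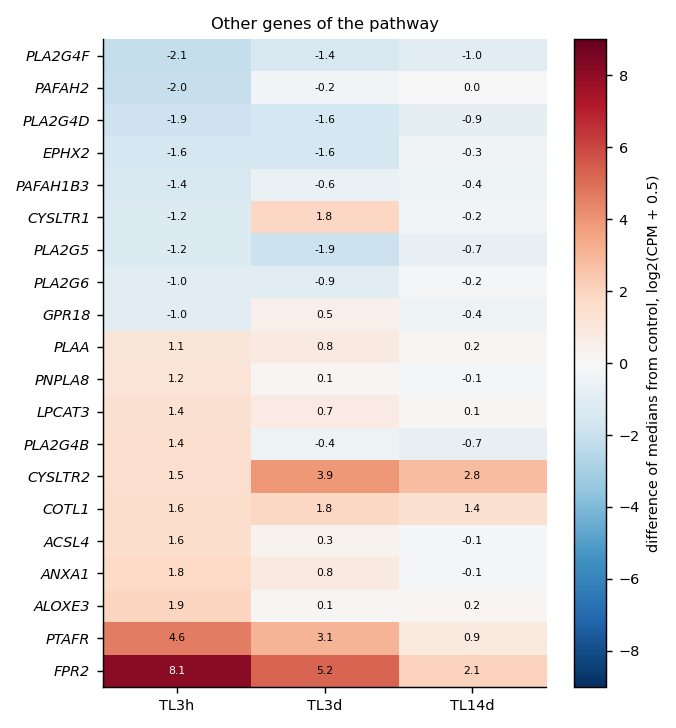
Difference of the group median from the control median, in log2(CPM + 0.5), for 20 other genes of the pathways (rows) at TL3h, TL3d, and TL14d (columns), with the value in each cell and red for higher and blue for lower. FPR2 is highest in both TL3h and TL3d, followed by PTAFR in TL3h and CYSLTR2 in TL3d, and PLA2G4F, PAFAH2, and PLA2G4D are lowest in TL3h.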

How the data were processed

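RNA-seq was analysed from 12 conjunctival libraries in 4 groups of 3, placed by their sample labels. Per the labels, reads were mapped with STAR (2.6.0c) to OryCun2.0, and the study's methods name GeneData Profiler Genome for quantification. The authors deposited estimated counts, not divided by depth (23.4% of gene values were fractions), and FPKM values, divided by transcript length and depth. How shared reads were divided, and whether counting used strand, is not given in the sources used here.

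Estimated counts were rounded to whole numbers, since the plan had assumed plain counts. edgeR 4.0.16 (R 4.3.3) with filterByExpr (minimum count 10, minimum total 15) kept 14835 of 20566 genes and 26082 of 38710 transcripts. After TMM scaling, 1 quasi-likelihood model of the 4 groups, with no covariate, was fitted to the 12 libraries. q values are Benjamini-Hochberg adjusted over all genes (or transcripts) tested, with a threshold of 0.05, and SE is the log2 fold change divided by the root of the F statistic. FPKM was used only to compare levels between genes. Calls in 1 direction were set beside those of all genes. Members and lists were chosen with earlier results of these data known.

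Named genes were all members, then pathway genes past the threshold, at 1 CPM or more in 1 group and without overlap of libraries, up to 6 per direction and comparison, and the 5 nearest profiles. Alternatives were RLE scaling, library size only, DESeq2 1.42.0, 2 other filters, only the 6 libraries compared, a replicate block, and leaving out each library. The code of the fit was run on simulated counts with the same dispersion for all genes and changes in TL3d only. That setting is simpler than these data, so it gives no error rate for them. The study describes its values as means over 3 eyes and operated only right eyes, so operated libraries of a group came from different rabbits, while for the control libraries no source used here says so. Intervals and floors cover counting error only.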

Additional observations from a re-analysis of the deposited data

Results flagged for a closer look

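Among the 7 genes tested apart from PLA2G2F and LOC100351425, which were listed for their levels at 3 days, 2 differed between TL3d and TL3h, a comparison in which 37.3% of all genes passed. The difference in log2 fold change from control, TL3d minus TL3h, was 1.95 ± 0.37 (SE, n = 3 per group, edgeR q = 0.00266) for PLA2G7 and 1.08 ± 0.30 (edgeR q = 0.0165) for LTA4H. Against control PLA2G7 passed at neither time, and LTA4H passed at 3 days and not at 3 hours. The LTA4H difference was lost without TL3h replicate 2, TL3d replicate 1, or TL3d replicate 2 (edgeR q of 0.0517 to 0.0569, n = 2 in that group). PLA2G7 lay below control in all TL3h libraries and above it in all TL3d libraries.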

How the results depend on the processing

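The sign turned in 8 results for single genes, of which PAFAH1B1 at 3 hours alone was past the threshold as reported. Over the fits that left out 1 library, LOC100351425 ranged from -0.43 (without TL3h replicate 2) to 2.44 at 3 hours and from -1.42 (without TL14d replicate 1) to 4.43 from TL3d to TL14d. PLA2G7 ranged from -0.80 to 0.02 (without control replicate 1) and ALOX5 from -0.87 to 0.01 (without control replicate 3) at 14 days, and ALOX12 from -1.23 to 0.12 (without TL3d replicate 1) from TL3d to TL14d. With library size only, ALOX12 (-0.03), LTA4H (-0.19), and PAFAH1B1 (-0.10) turned at 3 hours, where this scaling moved the median of all genes from 0.02 to -0.47. Counts of members and their transcripts leave out PLA2G2F and LOC100351425. With no filter on low counts 1 member passed at 3 days, and with only the 6 libraries compared 4 passed from TL3h to TL3d (12.1% and 40.9% of all genes). DESeq2 called 5 members at 3 hours (51.1%) and 1 from TL3d to TL14d (12.5%), and 15, 1, and 4 pathway genes at 3 days (30.3%), at 14 days (2.49%), and from TL3d to TL14d. It called 9 member transcripts at 3 hours and 6 at 3 days (37.0% and 18.7% of all transcripts), where edgeR called 5 and 1. Library size only gave 2 pathway genes from TL3d to TL14d (1.82% of all genes) and 9 member transcripts at 3 hours (32.5% of all transcripts). The fit to only the 6 libraries compared gave 0 pathway genes from TL3d to TL14d (0.105%) and 4 member transcripts at 3 days (10.1%). A filter of 1 CPM in 3 libraries gave 2 such transcripts, and the share of all transcripts under it is not given here. Leaving out 1 library gave 3 to 5 members at 3 hours, 0 to 3 at 3 days, 0 to 1 at 14 days, 1 to 3 from TL3h to TL3d, and 0 from TL3d to TL14d, in fits where 34.9% to 48.1%, 2.37% to 25.0%, 0% to 4.74%, 26.1% to 41.2%, and 0% to 3.87% of all genes passed. For pathway genes the ranges were 13 to 20, 0 to 14, 0 to 2, 6 to 11, and 0 to 4 in the same order, and for member transcripts against control 5 to 7, 0 to 6, and 0 to 1. The shares above are of genes, and those of all transcripts in these fits are not given here. Library exclusions leave fewer samples, yet some of them raised the counts, and the cause of these moves was not tested. At 14 days 0 of 14835 genes passed with edgeR, 1538 had an unadjusted p under 0.05, and DESeq2 called 367.

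Replicate numbers are not stated to pair the samples, and deviations of same-numbered samples correlated at -0.147 to 0.481 (median 0.034). With the replicate number as a block, 3 members were called at 3 hours, 2 at 3 days, and 4 from TL3h to TL3d (46.8%, 18.3%, and 39.3% of all genes), PLA2G4A and LTB4R being lower in the last, and 3 member transcripts at 3 days (4% of all transcripts). Depth limits ALOX15 in every group, PLA2G2F outside TL3d, and LOC100351425 in TL3d.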
